A study of Homo sapiens with 20 samples.

Results

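The BTG and TOB proteins are small antiproliferative proteins that act as adaptors of mRNA deadenylation. The genes described here are BTG1, BTG2, BTG3, TOB1 and TOB2, and their members on the array were every probe set whose annotation names exactly 1 of these genes. They gave 11 probe sets of 50441 in the table, and 4 of the 5 listed genes among 19353 genes named alone by a probe set: 3 for BTG1, 3 for BTG3, 2 for TOB1 and 3 for TOB2. No probe set in the annotation used here names BTG2, so BTG2 was not analysed here. RNA came from HEK293 cells, a human embryonic kidney line. The EGFP-ZFP36 line was of the Flp-In T-REx type, in which a single integrated transgene is switched on by doxycycline. The induced group was the line with EGFP-tagged human ZFP36 after 16 h with 1 µg/ml doxycycline, sorted for green fluorescence. The mock-induced group was the same line given the same volume of water and sorted to leave out fluorescent cells. The parental doxycycline and parental vehicle groups were parental HEK293 cells without that transgene, given doxycycline or water. The sources do not say whether the parental cells were of the Flp-In T-REx type. Parental cells were passaged at another dilution and grown for a shorter time before treatment than EGFP-ZFP36 cells. Each group had 5 arrays, 20 in all. The experiment was repeated on 5 days in each cell line, and the sources do not say that these were the same days, so that cell line, culture and day cannot be told apart.

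ZFP36, also called tristetraprolin, is an RNA-binding protein that recognises AU-rich elements and brings deadenylases to the mRNAs that carry them. The shared BTG/TOB domain of the family binds the CNOT7 and CNOT8 catalytic subunits of the CCR4-NOT deadenylase. TOB1 and TOB2 have in addition a long C-terminal part that binds cytoplasmic poly(A)-binding protein, so that they can link the deadenylase to the poly(A) tail, whereas BTG1, BTG2 and BTG3 lack it. The family is known for slowing cell proliferation when overexpressed, and BTG2 for its induction by p53.

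The promoter sequences of the 4 genes with a probe set are given because the members differed in induced against mock-induced cells. There TOB1 and the brightest BTG3 probe set fell, whereas the other BTG3 probe sets, BTG1 and TOB2 changed less. BTG1 differed more between the cell lines. The sequences are the 250 bases before the start site in RefSeq, build GRCh38.p14, written 5′ to 3′ along the gene's strand. All 4 genes matched the promoter table. TOB1 has 2 start sites there and the one with the lower coordinate is shown. Capitals mark 4 motifs: the CCAAT box, the core TGACG of the cyclic AMP response element, the TATA box as TATAAA, and GGGCGG, known as the GC box. They were searched on both strands, and none of these motifs is contained in another. The motifs were chosen after the sequences were seen.
BTG1, chr12:92145847-92146096, minus strand: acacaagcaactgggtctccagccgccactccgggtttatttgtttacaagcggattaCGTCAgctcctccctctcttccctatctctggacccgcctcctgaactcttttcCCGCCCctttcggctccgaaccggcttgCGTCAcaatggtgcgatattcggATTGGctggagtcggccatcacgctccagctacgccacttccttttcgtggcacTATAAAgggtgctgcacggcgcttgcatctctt
BTG3, chr21:17612902-17613151, minus strand: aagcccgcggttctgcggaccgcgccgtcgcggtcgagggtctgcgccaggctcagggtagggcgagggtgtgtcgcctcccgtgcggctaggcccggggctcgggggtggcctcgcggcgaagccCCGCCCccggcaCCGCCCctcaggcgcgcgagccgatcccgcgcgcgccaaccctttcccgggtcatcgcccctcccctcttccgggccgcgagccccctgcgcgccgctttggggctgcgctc
TOB1, chr17:50866355-50866604, minus strand: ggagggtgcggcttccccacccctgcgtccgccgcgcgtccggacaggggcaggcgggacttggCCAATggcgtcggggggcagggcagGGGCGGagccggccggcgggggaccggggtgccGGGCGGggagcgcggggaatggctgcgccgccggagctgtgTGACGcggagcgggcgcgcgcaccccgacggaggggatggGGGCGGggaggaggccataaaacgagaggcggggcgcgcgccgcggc
TOB2, chr22:41446802-41447051, minus strand: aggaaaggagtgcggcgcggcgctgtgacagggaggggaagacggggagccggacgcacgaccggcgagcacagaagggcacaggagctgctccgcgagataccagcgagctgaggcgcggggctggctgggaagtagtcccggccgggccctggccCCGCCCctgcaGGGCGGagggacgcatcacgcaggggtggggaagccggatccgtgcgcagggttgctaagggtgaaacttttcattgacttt

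The BTG1 sequence held 1 CCAAT, 2 TGACG, 1 TATAAA and 1 GGGCGG match, and its GC content was 56.4%. BTG3 held 2 GGGCGG matches and none of the other motifs in a window with 78.4% GC. The TOB1 window had 80.4% GC with 1 CCAAT, 1 TGACG and 3 GGGCGG matches. The window before the other TOB1 start site, chr17:50867979-50868228, had 38.4% GC and none of the 4 motifs, so the TOB1 description depends on the start site taken. TOB2 had 68.4% GC and 2 GGGCGG matches. Among 35116 promoters of the same length, 32% held CCAAT, 21.2% TGACG, 10.7% TATAAA and 42.6% GGGCGG. The windows are a description of the letters and were not set against the array values in a test.

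Values are log2 GCRMA levels, on which 2.19 is the lowest value of the table and a group mean above 4.5 was required for testing. Of the 11 probe sets 8 passed this filter in at least 1 group and were tested, as 8 of 18639 probe sets naming 1 gene. Correlation between arrays of the same group ranged from 0.9824 to 0.9965. The ZFP36 probe set read 5.42 ± 0.49 (SD, n = 5) in induced and 5.36 ± 0.43 in mock-induced cells, against 3.76 ± 0.58 and 3.45 ± 0.56 in parental cells with doxycycline and vehicle. No source used here says whether this probe set reads the transgene, so it does not check the labels. Of the 5 HEK293 markers with a probe set, VIM, NEFL and INA were above the filter in all groups, whereas NEFM read 3.87 ± 0.28 in mock-induced and a mean of 12.27 in parental vehicle cells. PAX2, the fifth of these markers, was above the filter in induced cells (4.86 ± 0.44) and under it in the other groups (2.77 in mock-induced, 2.59 and 2.60 in parental cells). None of the 7 blood and 5 endothelial markers with a probe set was above the filter in any group.

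**Figure D1:**
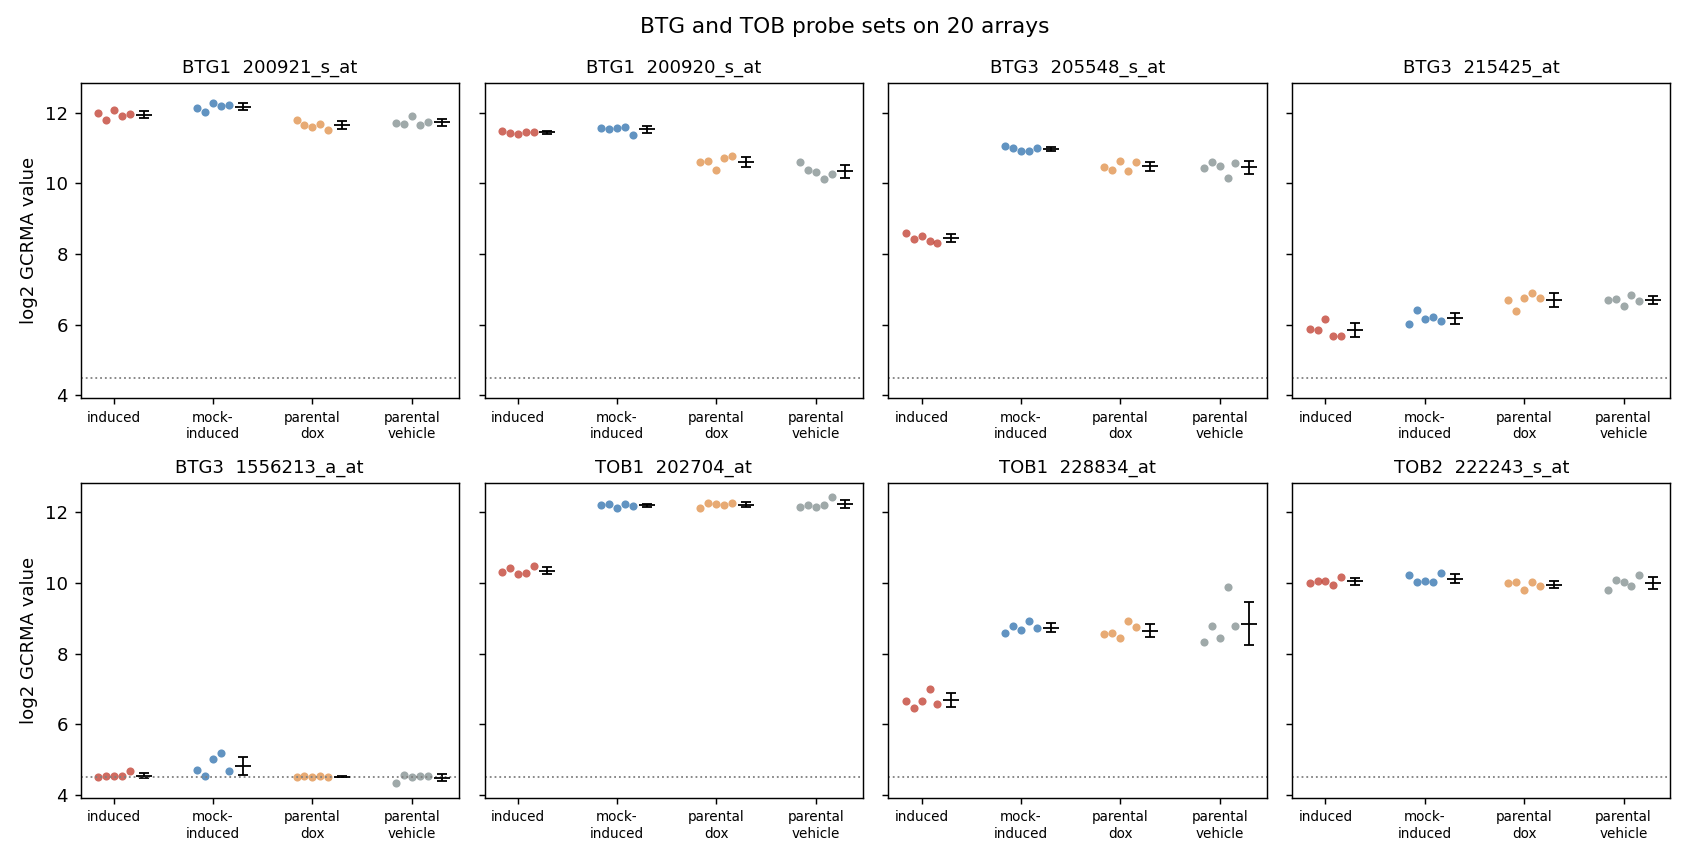
Log2 GCRMA value (y axis) of the 8 tested BTG and TOB probe sets on each of the 20 arrays, in the 4 groups (x axis). Points are arrays, the black marks beside them the mean ± SD of 5 arrays, and the dotted line the filter at 4.5. The induced arrays lie below all others for BTG3 205548_s_at and for both TOB1 probe sets, and the 4 groups overlap for TOB2.

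Induced against mock-induced cells shows how the family stood in EGFP-ZFP36 cells with and without the switched-on transgene. TOB1 fell at both of its probe sets and BTG3 fell at its brightest one, by between 3.60-fold and 5.80-fold, whereas neither BTG1 probe set and not the tested TOB2 probe set passed the threshold. Thus 3 of the 8 tested probe sets were lower and 0 were higher at a Bonferroni-adjusted p under 0.01 in limma. Across all 18639 probe sets 21.8% were lower and 22.1% higher, so that calls in either direction were common. The arrays of the 2 groups did not overlap for 3 of 8 members and for 76.9% of all probe sets. The median change of the tested members was −0.31 on the log2 scale, and that of all probe sets was 0.12.

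TOB1, an adaptor that bridges CCR4-NOT and poly(A)-binding protein, was read by 202704_at at 10.32, 10.44, 10.25, 10.29 and 10.47 in the induced arrays. The mock-induced arrays read 12.20, 12.22, 12.14, 12.25 and 12.19. All 5 induced arrays thus lay below all 5 mock-induced arrays, and the nearest values were 1.67 apart on the log2 scale. The log2 fold change was −1.85 (SE 0.06, 95% CI −1.97 to −1.73), a 3.60-fold decrease (adjusted p = 7.62e-08, exact permutation p = 0.00794, the smallest that 5 against 5 arrays can give). The second TOB1 probe set, 228834_at, read 6.67, 6.47, 6.66, 7.01 and 6.59 in induced and 8.59, 8.80, 8.67, 8.92 and 8.73 in mock-induced cells. It fell by 2.06 on the log2 scale (SE 0.10), or 4.17-fold (adjusted p = 1.2e-05), and its groups did not overlap either. Across the 20 arrays the 2 TOB1 probe sets correlated with r = 0.94, a description over arrays that share the group differences.

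BTG3, a family member known as a p53 target that binds CNOT7 and CNOT8, was read by 205548_s_at at 8.60, 8.43, 8.51, 8.36 and 8.32 in induced cells. The mock-induced arrays read 11.06, 10.99, 10.93, 10.91 and 11.01. No induced array came within 2.32 of a mock-induced array. The log2 fold change was −2.54 (SE 0.06, 95% CI −2.67 to −2.40), a 5.80-fold decrease (adjusted p = 9.02e-09). The other BTG3 probe sets did not show a change of this size. At 215425_at induced cells read between 5.68 and 6.15 and mock-induced cells between 6.01 and 6.43, a log2 fold change of −0.34 (SE 0.10) that did not pass the threshold. At 1556213_a_at all induced arrays read between 4.51 and 4.68, at the filter, and mock-induced arrays between 4.55 and 5.18, with a log2 fold change of −0.28 (SE 0.11) that did not pass either. The 95% interval of 215425_at, −0.57 to −0.11, does not reach that of 205548_s_at. At 1556213_a_at the values 4.51 and 4.53 recur in induced cells and in parental cells with either treatment, as at a background level. If that is background, the mock-induced mean of 4.83 left little room for a fall as large as that of 205548_s_at. Whether it is background was not tested, and the lowest array there, parental vehicle replicate 1, read 4.33. The interval of 1556213_a_at, −0.52 to −0.04, lies apart from that of 205548_s_at, and this disagreement is unresolved. Over 20 arrays 205548_s_at correlated with 215425_at at r = 0.62 and with 1556213_a_at at r = 0.28, and the latter pair at r = −0.31. In this comparison the BTG3 call therefore rests on 1 probe set, whose suffix _s_at means that its probes can match several transcripts.

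BTG1, a short family member without the C-terminal extension, was read at high level in every group. Its brightest probe set, 200921_s_at, read 11.99, 11.80, 12.08, 11.90 and 11.96 in induced and 12.15, 12.02, 12.27, 12.20 and 12.23 in mock-induced cells. The groups overlapped, and the log2 fold change of −0.22 (SE 0.07, 95% CI −0.37 to −0.08) did not pass the Bonferroni threshold (exact permutation p = 0.0159). At 200920_s_at the log2 fold change was −0.09 (SE 0.06, 95% CI −0.21 to 0.04, exact permutation p = 0.103). The third BTG1 probe set, 1559975_at, was under the filter in all groups, with 2.45 to 2.95 in mock-induced cells and 13 of the other arrays within 0.005 of the lowest value.

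TOB2, the closest relative of TOB1 and likewise a binder of poly(A)-binding protein, was read by 222243_s_at at 10.01, 10.07, 10.05, 9.93 and 10.17 in induced cells. Mock-induced cells read 10.24, 10.03, 10.05, 10.02 and 10.28, and the groups overlapped. The log2 fold change was −0.08 (SE 0.07, 95% CI −0.23 to 0.08, exact permutation p = 0.286), which leaves room for a decrease of up to 0.23 on the log2 scale as deposited. It was −0.19 with centring on the hybridization controls and −0.44 with centring on the poly-A controls, so the room is larger under these alternatives. The other TOB2 probe sets gave no usable level. At 221496_s_at no array exceeded 3.84, and at 234720_s_at 19 of 20 arrays sat within 0.005 of the lowest value.

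**Figure D2:**
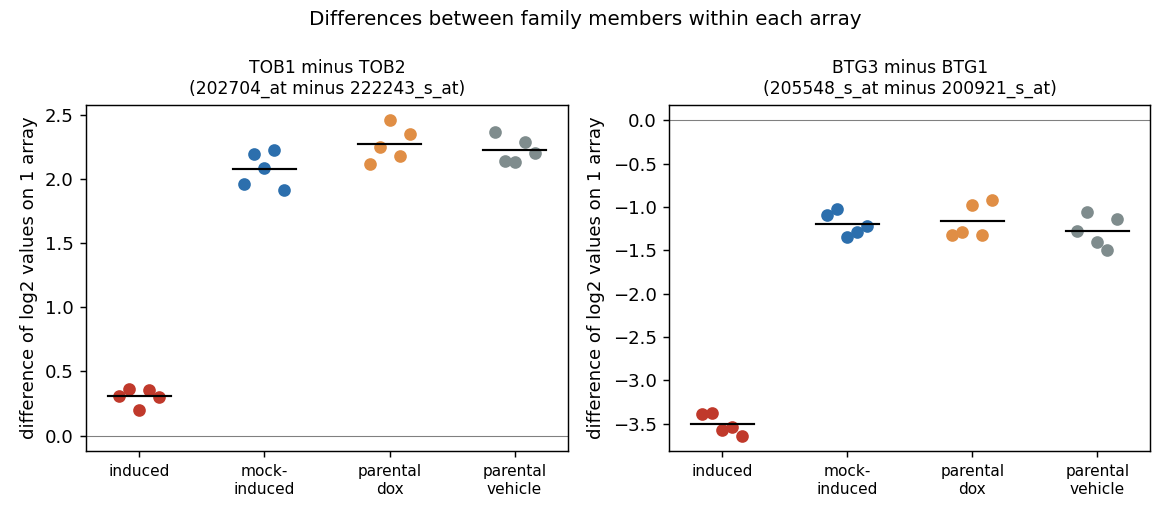
Difference of log2 values between 2 family members on the same array (y axis) in the 4 groups (x axis), for TOB1 minus TOB2 and for BTG3 minus BTG1. Points are arrays and lines the means of 5 arrays. In both panels all 5 induced arrays lie below the arrays of the 3 other groups.

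A difference taken within an array is unchanged by a constant added to all log2 values of that array, such as the centring alternatives, though not by the quantile step of GCRMA. TOB1 minus TOB2 had a mean of 2.08 (1.92 to 2.23) in mock-induced and 0.31 (0.20 to 0.36) in induced cells, a shift of −1.77. In the parental groups the same difference was 2.27 with doxycycline and 2.23 with vehicle. BTG1 minus BTG3 had means of 1.19 in mock-induced and 3.50 in induced cells. Within the pair that fell, BTG3 minus TOB1 went from −1.22 to −1.91, so that BTG3 205548_s_at dropped further than TOB1 202704_at in this comparison. In the parental groups it was −1.741 with doxycycline and −1.775 with vehicle, nearer to the induced than to the mock-induced mean. These values show unequal change of the probe sets and set no level of 1 gene against another.

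Other measures differed between induced and mock-induced cells as well. The 3′ minus 5′ difference of the actin control probe sets, a sign of RNA quality, was 1.17 to 1.49 in induced, 1.36 to 1.75 in mock-induced, 1.34 to 1.97 in parental doxycycline and 1.14 to 2.18 in parental vehicle arrays. Of the HEK293 markers, NEFL rose by 0.63 and PAX2 by 2.10 on the log2 scale. PAX2 passed the filter through the induced group alone, so it could only be called as a rise. Of the 6 fibroblast markers, COL1A1 and COL3A1 were above the filter and rose by 2.31 and 3.08 on the log2 scale, and the log2 summed level of the list was 9.61 to 9.89 in induced and 7.22 to 7.63 in mock-induced arrays. COL1A2 and DCN, also on that list, were at the lowest value in both groups. Flasks given doxycycline were described as less confluent, with more rounded and floating cells. The induced cells were sorted for fluorescence and the mock-induced cells for its absence, so sort gate and induction cannot be told apart. The part of the actin, marker and confluence differences in the BTG and TOB values was not tested. In RNA from whole populations, fewer cells with a transcript and less RNA per cell cannot be told apart.

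Parental cells with and without doxycycline give the effect of the drug without the transgene. No member was called, and 0% of all 18639 probe sets were (0 with Benjamini-Hochberg adjustment, 414 at an unadjusted limma p under 0.05). TOB1 202704_at read 12.12 to 12.28 with doxycycline and 12.16 to 12.42 with vehicle, a log2 fold change of −0.01 (SE 0.06, 95% CI −0.15 to 0.13). BTG3 205548_s_at read 10.36 to 10.63 and 10.15 to 10.62, a log2 fold change of 0.02 (95% CI −0.19 to 0.24). Neither interval reaches the changes of −1.85 and −2.54 in EGFP-ZFP36 cells, which were cultured differently before treatment. The second TOB1 probe set, 228834_at, had a log2 fold change of −0.19 with a wider interval (95% CI −0.77 to 0.38). BTG1 200920_s_at, with a log2 fold change of 0.28 (SE 0.10, unadjusted p = 0.0165 in limma), was the only member at an unadjusted p under 0.05, and its groups overlapped.

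The interaction of doxycycline with cell line tests whether the doxycycline difference in EGFP-ZFP36 cells departs from that in parental cells. It passed for BTG3 205548_s_at, with −2.56 on the log2 scale (SE 0.12, adjusted p = 1.06e-10), and for TOB1 202704_at, with −1.84 (SE 0.08, adjusted p = 1.03e-10). Of all probe sets 20.6% passed with a lower and 19.1% with a higher interaction term. TOB1 228834_at had a term of similar size, −1.87 (SE 0.28), that did not pass (adjusted p = 0.0546). One parental vehicle array, replicate 4, read 9.88 at this probe set where the other 4 read 8.34 to 8.80, and without it the term was −2.13 (adjusted p = 4.13e-06). For TOB2 222243_s_at the term was −0.02 (95% CI −0.26 to 0.21), and for BTG1 200921_s_at −0.14 (95% CI −0.34 to 0.06). At BTG1 200920_s_at it was −0.36 (95% CI −0.60 to −0.13). At BTG3 215425_at and 1556213_a_at it was −0.35 (95% CI −0.65 to −0.05) and −0.31 (95% CI −0.57 to −0.04). The terms of these further BTG1 and BTG3 probe sets did not pass, though their intervals excluded 0.

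**Figure D3:**
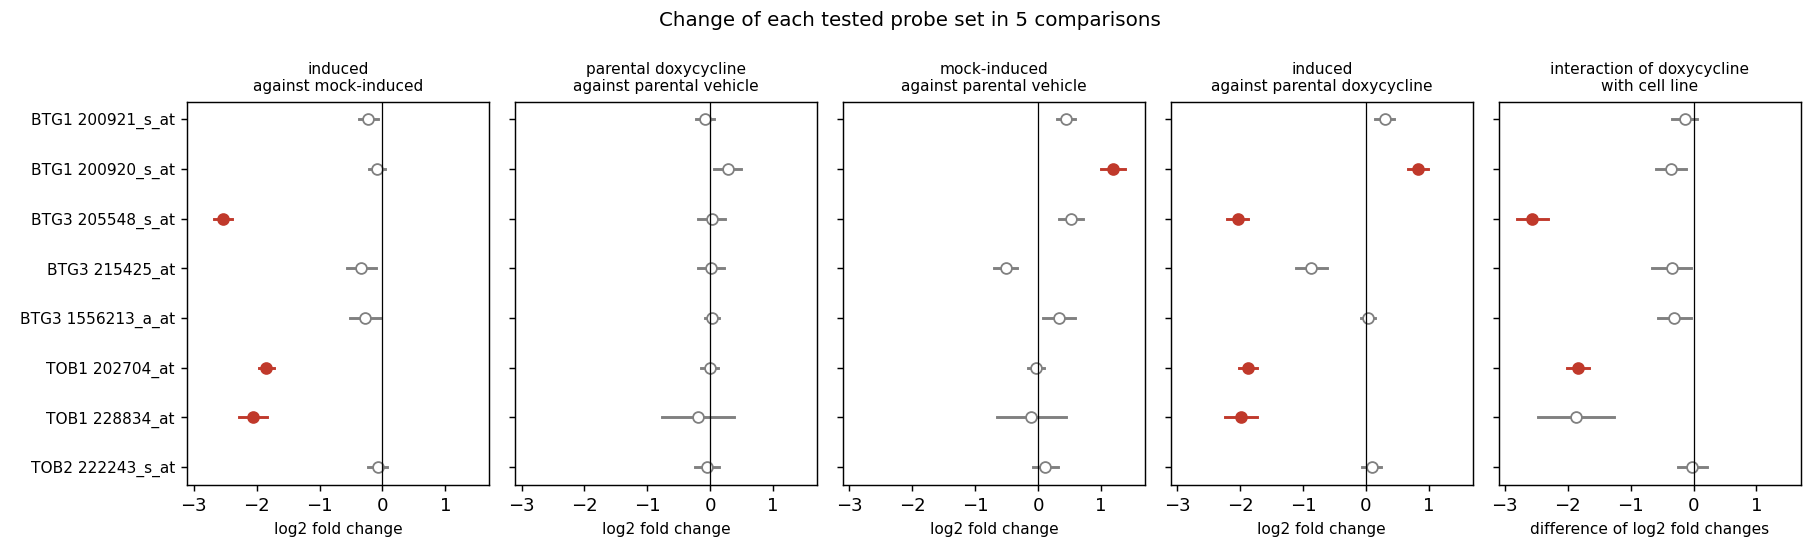
Log2 fold change of the 8 tested probe sets (rows) in 5 comparisons (panels); the last panel gives the difference of 2 log2 fold changes. Points are limma estimates with 95% confidence intervals, filled red where the Bonferroni-adjusted p was under 0.01. Both TOB1 probe sets and BTG3 205548_s_at lie between −2.56 and −1.84 wherever induced cells enter, all members lie near 0 in the parental panel, and BTG1 200920_s_at lies above 0 in both comparisons between the cell lines.

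Mock-induced against parental vehicle cells compares the cell lines without doxycycline. Of the 8 members 1 was higher and 0 were lower, where 10.2% of all probe sets were higher and 6.88% lower, so the count does not set the members apart. BTG1 200920_s_at read 11.57, 11.55, 11.57, 11.60 and 11.35 against 10.60, 10.38, 10.31, 10.12 and 10.27. All EGFP-ZFP36 arrays were above all parental arrays, and the log2 fold change was 1.19 (SE 0.09, 2.28-fold, adjusted p = 0.00103). The call was kept under 12 of 17 alternatives and lost, for example, with no filter on dim probe sets (adjusted p = 0.0191). BTG1 200921_s_at differed the same way by 0.44 (SE 0.07) without passing. Its groups did not overlap, as for 4 of 8 members, and the share over all probe sets was not taken in this comparison. BTG3 gave opposite signs at 2 probe sets, 0.52 (SE 0.08) at 205548_s_at and −0.51 (SE 0.08) at 215425_at, neither of which passed. TOB1 202704_at differed by −0.03 (SE 0.06) and TOB2 222243_s_at by 0.12 (SE 0.09).

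Induced cells against parental cells, both with doxycycline, gave 3 lower and 1 higher call among 8 members, where 19.4% of all probe sets were lower and 21.9% higher. The lower calls were BTG3 205548_s_at with −2.04 (SE 0.08), TOB1 202704_at with −1.87 (SE 0.06) and TOB1 228834_at with −1.98 (SE 0.12). The higher call was BTG1 200920_s_at with 0.83 (SE 0.07, adjusted p = 0.00387), which was kept under only 4 of 17 alternatives. Leaving out any 1 array other than parental doxycycline replicate 3 or 5 ended it, and over all single arrays left out its adjusted p ranged from 0.00291 to 0.0275. BTG3 215425_at had a log2 fold change of −0.86 (SE 0.11) and did not pass (adjusted p = 0.22). Its groups did not overlap, as for 6 of 8 members, and the share over all probe sets was not taken here either. This probe set was called with hybridization centring (−1.15, adjusted p = 0.00774) and with all 20 arrays in 1 model (adjusted p = 0.00145). This comparison shares the induced arrays with the first one and is not independent of it.

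The order of the 4 groups was taken for each of the 11 probe sets, with exact permutation tests of neighbours adjusted over 33 pairs. Of these pairs 7 passed (adjusted p = 0.0374 each), and 0 did when any 1 parental vehicle array was left out. Among the 7 was BTG1 1559975_at, under the filter, with means of 2.76 in mock-induced and 2.20 in parental vehicle cells. Groups without overlap were common, at 76.9% of all probe sets in induced against mock-induced cells. Among the passing pairs only that of TOB1 202704_at set these groups against each other. For the other passing pairs the share over all probe sets was not taken, so their count is not read as a result about the members. For TOB1 202704_at parental vehicle, parental doxycycline and mock-induced cells did not separate beyond their spread, and induced cells came last. For BTG3 205548_s_at mock-induced cells were highest, 0.50 above parental doxycycline cells, both parental groups did not separate, and induced cells were lowest. The TOB2 222243_s_at groups did not separate at any step. For BTG1 200920_s_at mock-induced and induced cells did not separate, and both were above the parental groups.

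Genes around the family, in 4 lists, were counted at the brightest probe set of each gene. The share of all 10834 genes tested at that probe set was 21.5% lower and 26.5% higher in induced against mock-induced cells, and their median change was 0.20 on the log2 scale. Of 15 genes of deadenylase complexes, which are CCR4-NOT with associated proteins, PAN2-PAN3 and PARN, 8 rose, 0 fell and 7 did not pass, with a median of 0.77. The 7 were CNOT3, CNOT6, CNOT6L, CNOT7, CNOT8, PAN2 and PAN3. CNOT1, the scaffold of CCR4-NOT, rose from 11.64 ± 0.06 to 13.17 ± 0.07 (SD, n = 5), by 1.53 on the log2 scale. CNOT4, a ubiquitin ligase bound to the complex, rose by 1.52, and CNOT2, which with CNOT3 forms a module of the complex, by 1.11. The probe sets of a gene did not all move alike: of 3 tested probe sets each, 1 was called for CNOT1 (range 0.31 to 1.53) and 1 for CNOT4 (0.33 to 1.52), while both tested for CNOT2 were called. TNKS1BP1, counted among the 8, passed the filter through the induced group alone (mean 4.82, against 3.14 in mock-induced cells). It could therefore only be counted as a rise. CNOT7 and CNOT8, the subunits that the BTG/TOB domain binds, read 12.94 ± 0.07 and 10.70 ± 0.06 in induced and 12.99 ± 0.06 and 10.25 ± 0.20 in mock-induced cells, and neither passed; they were named after their values were seen.

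Among the poly(A)-binding proteins and their interactors 5 of 9 genes were tested, of which 1 fell and 0 rose, with a median of 0.43. PAIP1, which binds poly(A)-binding protein and favours translation, fell by 1.16 (adjusted p = 1.2e-05), and both of its probe sets were called lower. PABPC1L and PABPN1 had log2 fold changes of 0.93 and 0.43 and did not pass. The single probe set naming PABPC1 alone, the main cytoplasmic poly(A)-binding protein, was at 2.19 in both groups. That is the lowest value of the table, so it gave no usable level and does not say whether PABPC1 was expressed.

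Of 13 binding partners and kinases 10 were tested, of which 2 fell and 4 rose, with a median of −0.11. SMAD5, a transducer of bone morphogenetic protein signals whose activity TOB1 restrains, fell by 1.62, and 2 of its 5 tested probe sets were called. RPS6KA1, a kinase that phosphorylates TOB1, rose by 2.30, and HOXB9, a homeodomain protein that BTG1 and BTG2 bind, by 1.13. ERBB2, the receptor after which TOB (transducer of ERBB2) is named, read 8.33 ± 0.15 in mock-induced and 9.98 ± 0.15 in induced cells, a rise of 1.65; it was named after its values were seen.

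Of 9 upstream transcription factors and G1 cell cycle genes 8 were tested, of which 3 fell and 1 rose, with a median of −0.48. CCND1, the cyclin D1 gene whose transcription TOB1 is known to repress, went from 8.91 ± 0.14 to 4.19 ± 0.49, near background, and both of its probe sets were called lower. RB1, the retinoblastoma protein gene, fell by 2.67, and FOXO1, a forkhead transcription factor, by 1.34 at 1 of 2 tested probe sets while the other read 0.29 higher without passing.

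**Figure D4:**
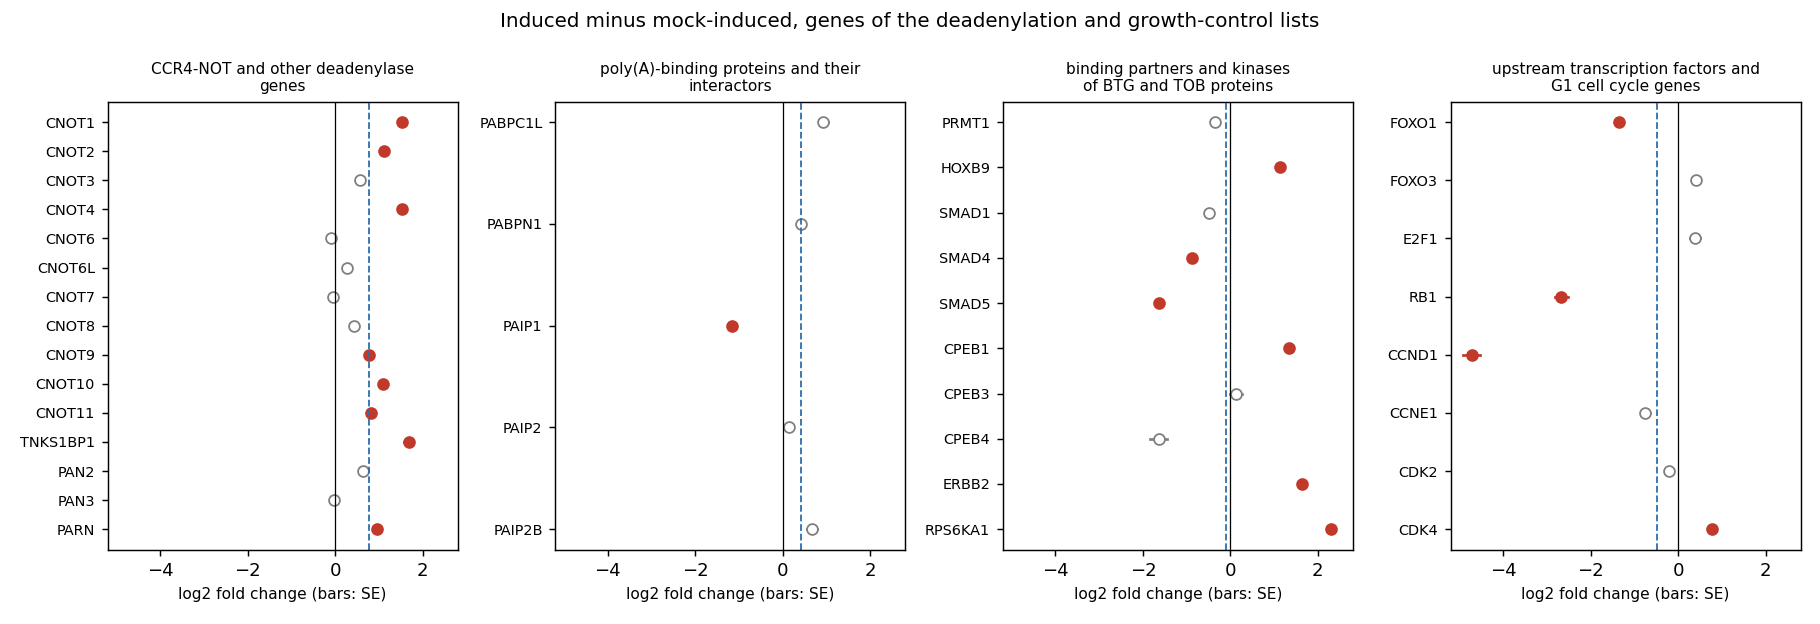
Log2 fold change, induced minus mock-induced (x axis), of the tested genes of the 4 lists (panels) at their brightest probe set. Bars are standard errors from limma, filled red points have a Bonferroni-adjusted p under 0.01, and dashed blue lines are the medians of the lists. In the deadenylase panel all 8 red points lie to the right of 0.

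The genes most like each member over the 20 arrays were taken by Pearson correlation, which here mostly follows the group differences. TOB1 202704_at was closest to CFL2 (r = 0.997), CMPK1 (r = 0.997) and ABRACL (r = 0.996). BTG3 205548_s_at was closest to PDGFC, ATP5MG and UQCC6 (r = 0.996 each). For BTG1 200921_s_at the highest values were 0.943 for LSM14A and 0.942 for NEDD4L and MOB3B. TOB2 222243_s_at, which varied little between groups, had lower ones, 0.756 for FBXO22, 0.715 for KLHL20 and 0.694 for PER3.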

How the data were processed

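The 20 arrays were Affymetrix U133 Plus 2.0, and the values deposited by the authors are log2 levels after GCRMA normalization (no source used here gives the version), from RNA amplified with a 3′ IVT kit. Of 50441 probe sets 38070 name exactly 1 gene in the platform annotation, 1423 name several, 10886 none and 62 are controls; 38018 of those naming 1 gene matched RefSeq. Labels gave all groups. Following the authors' filter, 18639 probe sets whose mean exceeded 4.5 in some group entered limma (version 3.58.1, R 4.3.3), fitted by lmFit with eBayes, with Bonferroni adjustment over all of them and calls at 0.01. The fit was tested on simulated data. Exact permutation tests used 252 splits. Named were all member probe sets, from each of 4 lists the 3 genes with the smallest p, the 3 genes most like each member, and ZFP36. Members and lists were chosen with earlier results of these data known. Precision is limited by the 5 arrays per group. Python 3.11.15 with matplotlib 3.10.9 drew the figures. Alternatives covered centring, filter, p adjustment, spread, samples fitted, probe set choice, the replicate number as a block and leaving out each array.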

Additional observations from a re-analysis of the deposited data

Results flagged for a closer look

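A sample was set apart where its gap to the nearest of its group was over 0.71 of the group's range. Of 44 groups 38 were examined, 6 with a range under 0.02 at the array floor being left out; this limit was set after a difference of 0.01 at the floor was seen at TOB2 234720_s_at. There were 6 such samples, and chance gives about 1 in 20 groups. BTG1 200920_s_at read 11.35 in mock-induced replicate 5 (others 11.54 to 11.60). BTG3 1556213_a_at read 4.68 in induced replicate 5 (others 4.51 to 4.53) and 4.33 in parental vehicle replicate 1 (others 4.51 to 4.58). TOB1 202704_at read 12.42 in parental vehicle replicate 5 (others 12.16 to 12.22). TOB2 221496_s_at, under the filter, read 3.84 in induced replicate 1 (others 3.43 to 3.46) and 2.38 in parental vehicle replicate 3 (others 3.42 to 3.43).

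The doxycycline difference differed between the cell lines, by the interaction term in limma, for BTG3 205548_s_at (−2.56) and TOB1 202704_at (−1.84). Each of the 5 induced arrays was below each of the 15 others at both probe sets.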

How the results depend on the processing

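For induced against mock-induced cells, all 135 alternative fold changes of the 8 probe sets kept their direction and side of the threshold, and leaving out any array left 3 called. Benjamini-Hochberg adjustment at 0.05 called 6 of the 8 members and 15933 of all 18639 probe sets. Using 1 probe set per gene with none ending in _s_at or _x_at, chosen after seeing the data, called 1. BTG3 was then read at 215425_at (−0.34), and BTG1 and TOB2 had no such probe set. Averaging all probe sets of a gene gave −1.05 for BTG3 and −1.95 for TOB1, both called. Centring on the hybridization controls moved the median of all probe sets from 0.12 to 0.00, and on the poly-A controls to −0.24; the latter puts the spread of those controls (prior degrees of freedom infinite in limma) into every probe set, so its p-values are not comparable.

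For mock-induced against parental vehicle cells (1 called), Benjamini-Hochberg adjustment called 5 members and 13172 of all probe sets. The count was 0 with the brightest probe set per gene, either centring, no filter, a separate spread per group or the replicate block. It was also 0 without _s_at or _x_at probe sets. For induced against parental doxycycline cells (4 called), the brightest or averaged probe sets gave 2 and those without _s_at or _x_at 1. Leaving out arrays gave 3 to 4 and all 20 arrays in 1 model 5. Benjamini-Hochberg adjustment called 6 members and 15665 of all probe sets. With hybridization centring the count stayed at 4, but BTG1 200920_s_at was lost (adjusted p = 0.913) and BTG3 215425_at gained. For the interaction (2 called), Benjamini-Hochberg adjustment called 6 members and 14458 of all probe sets. Probe sets without _s_at or _x_at gave 1 and leaving out arrays 2 to 3. With poly-A centring TOB1 202704_at was no longer called (adjusted p = 0.0131) while TOB1 228834_at was (adjusted p = 0.00854). The order of groups (7 of 33 pairs) gave 11 with hybridization centring, 0 with poly-A centring, and 0 to 8 without single arrays, 0 for each parental vehicle array, since 5 pairs then held the smallest p (0.00794) where the other arrays left 6 to 8, and the adjustment passed all or none of them.

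Changes of sign were limited to members not called. In parental cells, hybridization centring gave 0.07 for TOB1 202704_at and 0.026 for TOB2 222243_s_at; poly-A centring gave −0.078 for BTG1 200920_s_at, and −0.33, −0.35 and −0.33 for BTG3 205548_s_at, 215425_at and 1556213_a_at. Leaving out arrays there gave −0.052 to 0.064, −0.040 to 0.090 and −0.014 to 0.048 for these BTG3 probe sets, −0.028 to 0.037 for TOB1 202704_at and −0.32 to 0.066 for TOB1 228834_at. In mock-induced against parental vehicle cells the 2 TOB1 probe sets ranged from −0.051 to 0.014 and from −0.24 to 0.15. In induced against parental doxycycline cells, hybridization centring gave −0.25 for BTG3 1556213_a_at and −0.20 for TOB2 222243_s_at, and poly-A centring −0.0145 for BTG3 1556213_a_at. The interaction of TOB2 222243_s_at ranged from −0.076 to 0.030. The cause of these changes was not tested.

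The study describes pairs of treated and untreated cells, but the labels do not tie replicate numbers to days, so numbers were not taken as pairs. Same-numbered induced and mock-induced arrays correlated at 0.01 to 0.21 in their deviations, with 3 of 5 over 0.1. With the replicate block, BTG1 200920_s_at had an adjusted p of 0.0817 (mock-induced against parental vehicle) and 0.166 (induced against parental doxycycline).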

Other observations

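Genes with related names that are no members were near or under background. BTG4, a family member known from oocytes, was read by 2 probe sets at 2.19 in induced and mock-induced cells, and no array exceeded 2.25. TOB1-AS1, annotated antisense to TOB1, read 3.34 ± 0.14 (SD, n = 5) in induced and 3.71 ± 0.23 in mock-induced cells, under the filter. BTG1-DT read 2.89 ± 0.33 and 2.66 ± 0.05, and BTG2-DT 2.19 in both. They were chosen after their values were seen.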
